A study of Mus musculus with 2 samples.

Results

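Marker-rich fibroblasts are 180 cells of the SM22-SmoM2 library that were chosen by the expression of 7 genes, Areg, Il1rl1, Inhba, Tac1, Srxn1, Hmox1 and Ptgs2. A fibroblast here is a cell with at most 10% of its UMIs (unique molecular identifiers, 1 per captured transcript) from mitochondrial genes. It also had at least 10 UMIs per 10000 from Pdgfra, Lum, Dpt, Lox and Postn together, and at most 2 UMIs from Pecam1, Sox10, Rgs5 and Ptprc together. Of the 1802 cells of this library, 1090 met these limits, and 180 of them had at least 1 UMI in at least 4 of the 7 genes. The whole series holds 4680 cells, and the same rule chose 151 of 1579 fibroblasts in the control library. Because these 7 genes selected the cells, their own levels below describe the choice and test nothing.

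The study asked what Hedgehog (Hh) activation does to dermal cells of small skin wounds that normally heal by scarring. Tomato+ cells were sorted from the dermis of healed wounds. All mice carried the transactivator SM22-rtTA, a tetO-Cre transgene and a Cre-dependent allele at R26, which was R26-Tomato in the control group and R26-SmoM2/Tomato in the SM22-SmoM2 group, so that the latter also expressed SmoM2, an activated form of the Hh pathway protein Smoothened. Mice of both groups were 4 to 5 weeks old, received doxycycline (20 g/kg) from day 1 after wounding, and were sampled 3 days after re-epithelialization was complete. The SM22α promoter drives the transactivator and is active in myofibroblasts and smooth muscle, the wounds of several mice were pooled, and each genotype is 1 library. With 1 library per genotype no difference can be set against replicate error. The 95% intervals below are exact, cover counting error only, and no p-value is given.

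The 7 genes belong to different routes. Areg encodes amphiregulin, a ligand of the EGF receptor, and Il1rl1 encodes ST2, the receptor of the alarmin IL-33. Inhba encodes the subunit of activin A, Tac1 the precursor of the neuropeptide substance P, and Ptgs2 cyclooxygenase 2, the inducible enzyme of prostaglandin synthesis. Hmox1, which breaks down haem, and Srxn1, which restores oxidised peroxiredoxins, are known antioxidant genes that the transcription factor NRF2 can induce. In wounds, fibroblasts are known to produce matrix and also to send signals to immune and epithelial cells.

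The SM22-SmoM2 library held 17863317 UMIs with a median of 8812.5 per cell, and the control library 30208318 UMIs with a median of 8560. The rule favours deep cells: marker-rich fibroblasts had a median of 13949.5 UMIs against 9401.5 in the other fibroblasts of the SM22-SmoM2 library, and 17431 against 8869.5 in the control library. The limits for a fibroblast also let in other cells. Among 15 sub-clusters of all fibroblasts, 4 were led by Schwann cell genes such as Sostdc1 and 1 by immune genes such as Cd74. These 5 sub-clusters held 194 of the 910 other fibroblasts of the SM22-SmoM2 library and 511 of 1428 in the control library, but only 3 and 0 marker-rich cells. Main values are therefore also given without them. Whether the libraries share cell barcodes was not examined here, because the matrix columns carry no barcode names.

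Marker-rich cells made up 16.5% of SM22-SmoM2 fibroblasts (14.4 to 18.9) and 9.56% of control fibroblasts (8.16 to 11.1). Without the Schwann- and immune-led sub-clusters the shares were 19.8% of 893 and 14.1% of 1068 cells. With every cell thinned to 5000 UMIs, which left out 175 and 242 shallower cells, the shares were 11.8% of 915 (9.78 to 14.1) and 3.81% of 1337 (2.85 to 4.99). The higher share in the SM22-SmoM2 library thus stood in all 3 forms, as a value of 1 library each. The 7 genes had been picked with the SM22-SmoM2 cells in view. The choice itself therefore favours a higher share there, and the shares test nothing. In the SM22-SmoM2 library 47 cells had 6 and 8 cells had all 7 of the genes, against 15 and 1 in the control library.

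**Figure D1:**
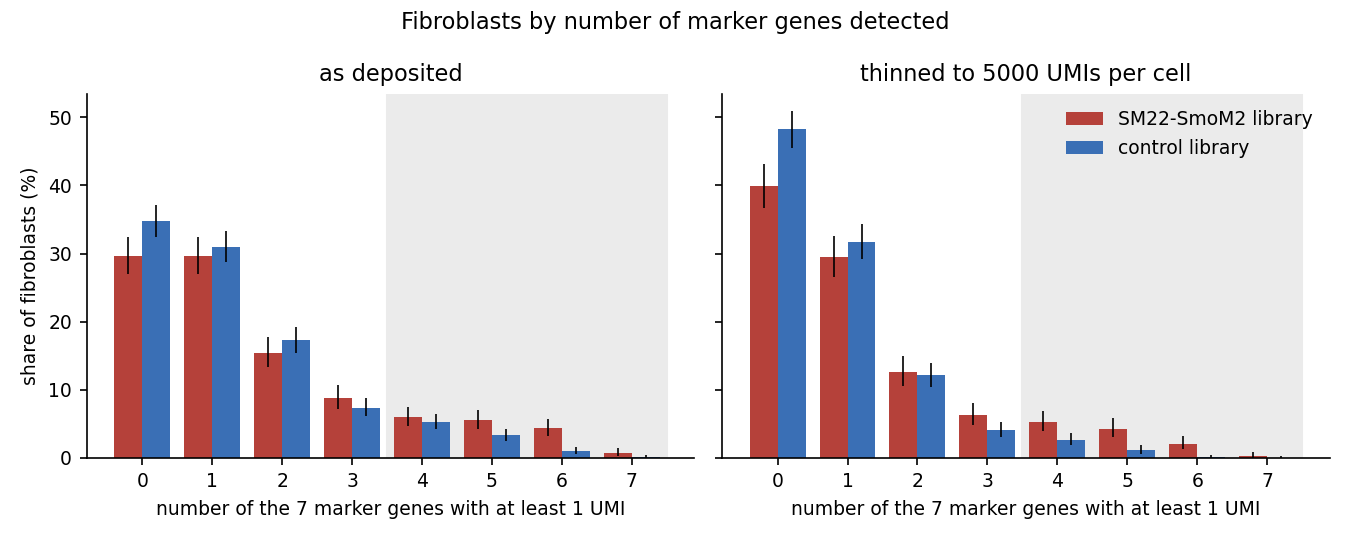
Share of fibroblasts (%, vertical axis) by the number of the 7 marker genes with at least 1 UMI (horizontal axis) in the SM22-SmoM2 (red) and control (blue) library, as deposited and with each cell thinned to 5000 UMIs. Lines are exact 95% intervals for counting error, and the grey field marks the chosen cells, where the red bars exceed the blue ones at each number. The choice of the 7 genes, made with the SM22-SmoM2 cells in view, favours this order.

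Many cells lay near the border of the rule. In the SM22-SmoM2 library 96 fibroblasts had 3 of the 7 genes and 65 had 4, with medians of 12739.5 and 13321 UMIs. Outside the Schwann- and immune-led sub-clusters, Hmox1 was at 326 CPM (UMIs per 1000000 UMIs of the group) in cells with 3 genes and at 802 CPM in those with 4. Il1rl1 was at 174 and 404 CPM, and Srxn1 at 86.5 and 157 CPM. As a ratio, Areg had the largest step, from 6.78 to 144 CPM, and Ptgs2 had almost none, from 56.8 to 58.8 CPM. The rule itself sets these levels, so that they do not show whether the marker-rich cells form a group apart or the upper end of a range.

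Areg, which lies at chr5:91139599-91148432 (GRCm38, + strand), had the highest ratio between chosen and other cells in the SM22-SmoM2 library. Its level was 209 CPM (192 to 227) in marker-rich SM22-SmoM2 fibroblasts and 3.08 CPM in the others. In the control library it was at 17.0 CPM in the marker-rich cells and 1.8 CPM in the others, and 32 of the 45 control UMIs were in 1 cell. Areg was detected in 34.4% of the SM22-SmoM2 members, with up to 56 UMIs in a cell, so that most members lacked it. Of its 62 positive members, 59 also held Srxn1 and 58 Hmox1, whereas 24 held Tac1. Among all SM22-SmoM2 members, 83.3% held Srxn1, 95% Hmox1 and 49.4% Tac1. The rule itself asks for several of the genes together, so that no link is read from these counts.

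Srxn1 (chr2:152105516-152111376, + strand) was at 374 CPM in members and 31.0 CPM in the others of the SM22-SmoM2 library, and at 113 and 31.7 CPM in the control library. The sequences before the RefSeq start sites of Areg and Srxn1 are shown because both hold short motifs bound by stress- and growth-responsive factors. The motifs searched on both strands were the cAMP response element TGACGTCA (CRE), the AP-1 site TGANTCA, and a short antioxidant response element TGACNNNGC (ARE), whose letters can overlap an AP-1 site. The 150 bases before each start site are printed from RefSeq (GRCm38.p6) with the matches in capitals, for Areg chr5:91139449-91139598 and for Srxn1 chr2:152105374-152105523, both on the + strand.
Areg: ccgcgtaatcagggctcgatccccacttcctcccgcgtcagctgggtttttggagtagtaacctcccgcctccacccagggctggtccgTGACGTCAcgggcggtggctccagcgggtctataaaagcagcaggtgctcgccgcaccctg
Srxn1: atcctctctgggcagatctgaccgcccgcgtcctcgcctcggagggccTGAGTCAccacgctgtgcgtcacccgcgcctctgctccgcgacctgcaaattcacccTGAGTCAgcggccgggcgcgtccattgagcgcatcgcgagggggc
The Areg promoter held a CRE that starts at position -61 from the start site, and the Srxn1 promoter held AP-1 sites at -102 and -45 and, past the start site, an ARE at 29. Of 32851 RefSeq promoters of the same 300-base window, 1.79% held this CRE, 7.81% the AP-1 site and 12.4% the ARE. A promoter was found for 6 of the 7 genes. Il1rl1 had 1 ARE match at -88 in the second of its promoters, and Inhba, Tac1 and Ptgs2 had no match with these letters in the window.

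Hmox1 (chr8:75093621-75100589, + strand) was the most abundant of the 7 genes in SM22-SmoM2 members, but not in control members, where Il1rl1, Ptgs2 and Inhba were higher. It was at 846 CPM (812 to 882) in SM22-SmoM2 members and was detected in 95% of them, against 159 CPM in the other fibroblasts. Control members had 161 CPM, close to the other fibroblasts of the SM22-SmoM2 library, and the other control fibroblasts had 55.6 CPM. Thinned to 5000 UMIs, Hmox1 was detected in 75.4% of members, 29.3% of the other SM22-SmoM2 fibroblasts and 30.1% of the endothelial cells of that library (at least 3 Pecam1 UMIs, 240 cells with a median of 8196.5 UMIs). By level the endothelial cells were at 87.6 CPM (76.1 to 100), below the other fibroblasts, so that no order is read from these shares.

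Il1rl1 (chr1:40429570-40465415, + strand) was at 546 CPM (518 to 575) in SM22-SmoM2 members and 37.8 CPM in the others, and at 377 and 35.8 CPM in the control library. After thinning it was detected in 74.9% of members, 9.65% of the others and 3.83% of endothelial cells. Inhba (chr13:16011851-16031621, + strand, overlapped on the other strand by B230303A05Rik and Gm48444) was at 339 and 37.9 CPM in the SM22-SmoM2 library and at 174 and 28.9 CPM in the control library. These genes were the most frequent partners of Hmox1: each of Il1rl1 and Inhba was found with it in 145 of the 180 members. Each gene was frequent by itself, with Hmox1 in 95%, Il1rl1 in 85.6% and Inhba in 85% of members. No link is read from these pairs.

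Tac1 (chr6:7554879-7565834, + strand) was at 219 and 14.8 CPM in members and others of the SM22-SmoM2 library and at 132 and 14.3 CPM in the control library, and was detected in 49.4% of SM22-SmoM2 members. Ptgs2 (chr1:150100031-150108227, + strand) was the exception in its order between the libraries. It was at 195 CPM (66.1% of cells) in SM22-SmoM2 members and at 247 CPM (79.5%) in control members, against 13.9 and 14.5 CPM in the other fibroblasts. The other 6 genes were higher in the SM22-SmoM2 members than in the control members. After thinning, the shares of SM22-SmoM2 members, other fibroblasts and endothelial cells with a UMI were 35.8%, 3.53% and 2.19% for Tac1, and 43.0%, 3.94% and 2.19% for Ptgs2. For Inhba they were 60.3%, 9.65% and 2.73%, for Srxn1 65.9%, 11.7% and 5.46%, and for Areg 24.6%, 0.951% and 1.64%. The Areg levels of the other fibroblasts (3.08 CPM, 2.05 to 4.46) and of endothelial cells (3.34 CPM, 1.44 to 6.58) had overlapping intervals.

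**Figure D2:**
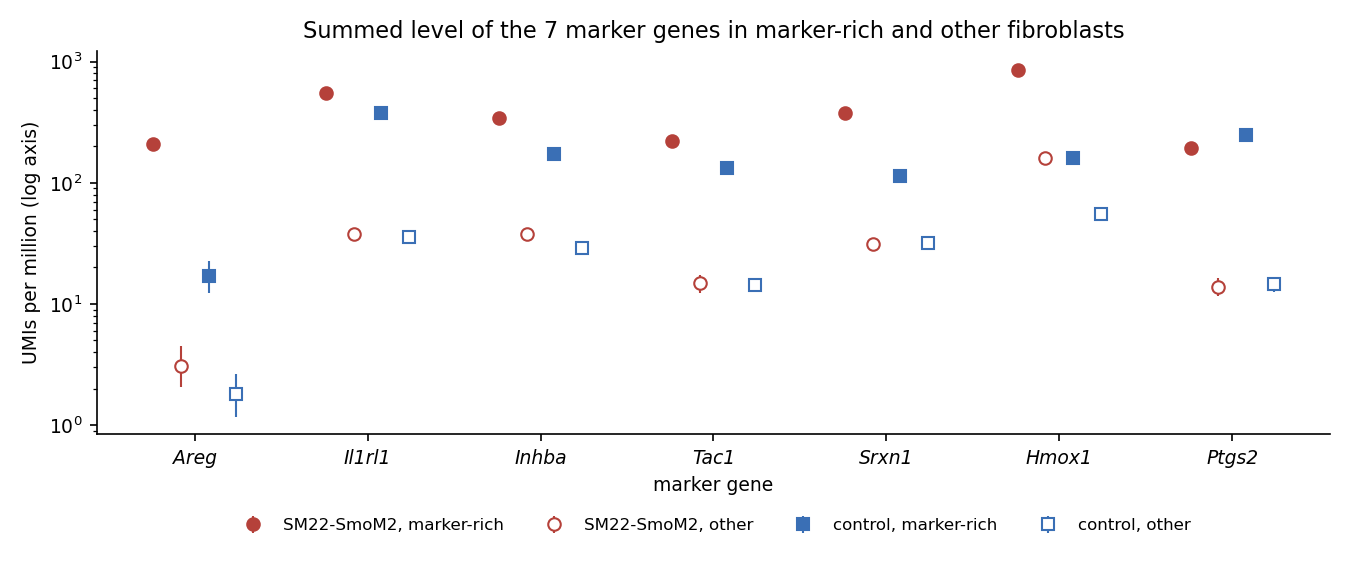
Summed level of each marker gene in CPM (log axis) in marker-rich (filled) and other (open) fibroblasts of the SM22-SmoM2 (red circles) and control (blue squares) library, with exact 95% Poisson intervals. Marker-rich cells of the SM22-SmoM2 library lie above those of the control for 6 genes, most for Areg (209 and 17.0) and Hmox1 (846 and 161), and below for Ptgs2.

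Each gene was also described in cells that it took no part in choosing, those with at least 3 of the other 6 genes. Chosen in this way, SM22-SmoM2 fibroblasts had a log2 ratio over the remaining fibroblasts of 5.36 (4.81 to 5.96) for Areg, 3.55 for Il1rl1, 3.30 for Tac1, 3.24 for Ptgs2, 3.21 for Srxn1, 2.76 for Inhba and 2.28 (2.18 to 2.37) for Hmox1. All 7 were thus at least 2-fold higher in cells chosen on the others. The same ratios in control fibroblasts were 3.34 for Ptgs2, 2.88 for Il1rl1, 2.38 for Tac1, 2.31 for Areg, 2.16 for Inhba, 1.40 for Srxn1 and 1.24 for Hmox1. Of the 7 ratios, 6 were lower in the control library, with the widest gap for Areg and the next for Srxn1, and that of Ptgs2 was not. Matched for depth, the Ptgs2 ratio was also lower in the control (2.94 and 3.24), and without the Schwann- and immune-led sub-clusters it was alike (3.02 and 3.05). The 7 genes had been picked with the SM22-SmoM2 cells in view, and these are values of 1 library each. Cells picked on other genes are also deeper. With the comparison matched on depth, the SM22-SmoM2 ratios ran from 2.68 for Hmox1 to 5.81 for Areg.

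The members mostly lay together. In a k-means clustering of the fibroblasts of both libraries that left out the 7 genes, 124 of the 180 members (68.9%) fell in 1 of 15 sub-clusters, sub-cluster 7, which held 179 SM22-SmoM2 and 9 control cells. Its leading genes, printed to identify it, included Penk, Il1rl1, Areg, Mmp13, Hmox1 and Errfi1. The next members were in sub-cluster 1 (22 cells, led by Crabp1 and Prss35), sub-cluster 8 (15 cells, led by Egfl6 and Wif1) and sub-cluster 5 (9 cells, led by Penk and Clec3b). With 10 or 20 sub-clusters, 70.6% and 66.7% of members shared 1 of them. A sub-cluster that is nearly all from 1 library may reflect that library.

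Members inside and outside sub-cluster 7 were not alike. Inside it Areg was at 295 CPM, Srxn1 at 525 CPM and Hmox1 at 1066 CPM. In the 56 members elsewhere these levels were 40.1, 80.1 and 419 CPM, although these cells were deeper (15811 against 13667.5 UMIs). Tac1 differed less, with 243 and 174 CPM. The 55 cells of sub-cluster 7 that missed the rule had no Areg UMI and 571 CPM of Hmox1, at a median depth of 10369 UMIs.

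The control members were other cells by this measure: 108 of 151 (71.5%) were in sub-cluster 3, led by Dlk1, Clec3b and Nov, which held 261 control cells and 3 SM22-SmoM2 cells. Only 4 control members were in sub-cluster 7. In the control members of sub-cluster 3, Il1rl1 was at 490 CPM and Ptgs2 at 321 CPM, whereas Areg was at 3.9 CPM. Dlk1 was at 1858 CPM there and at 16.6 CPM in the SM22-SmoM2 members of sub-cluster 7. The cells that missed the rule had 1741.5 CPM in sub-cluster 3 (control) and 18.8 CPM in sub-cluster 7 (SM22-SmoM2). The Dlk1 difference thus went with sub-cluster and library, whether or not cells met the rule.

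**Figure D3:**
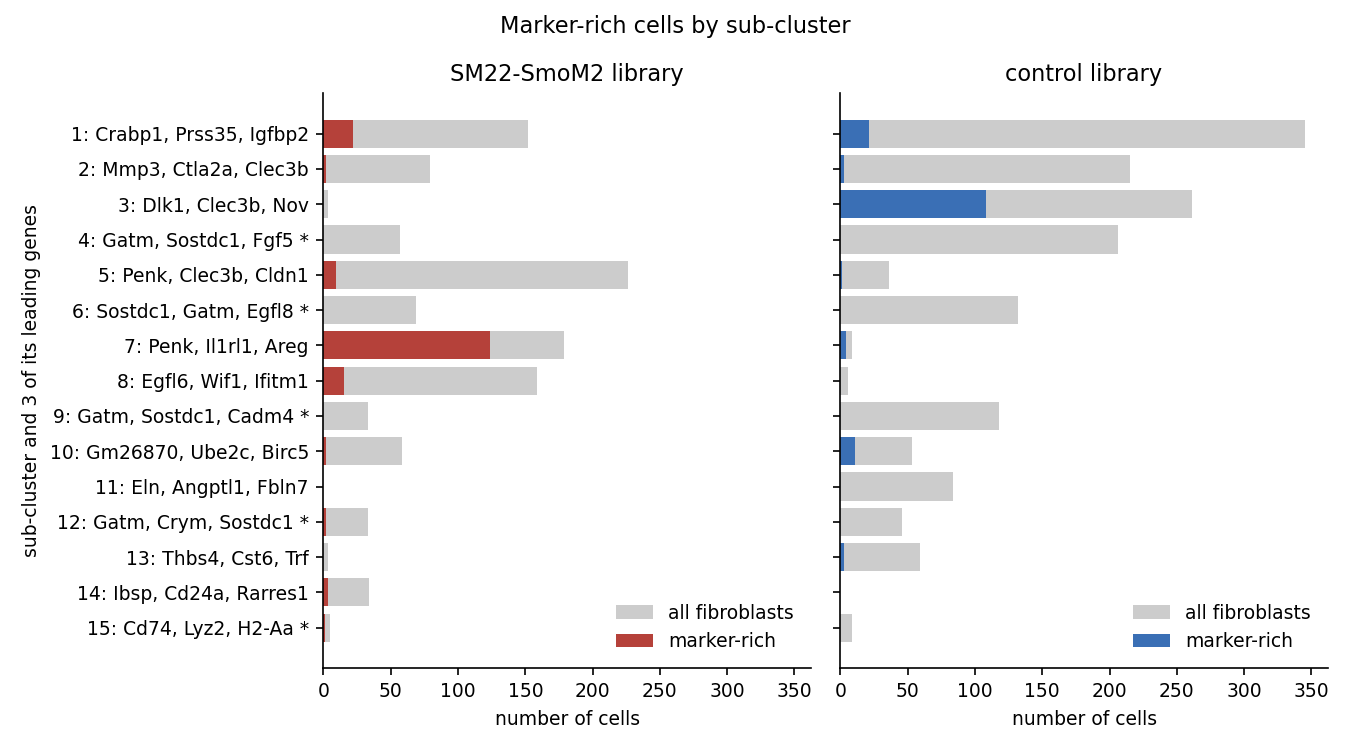
Number of fibroblasts (grey) and of marker-rich cells (coloured) in each of 15 sub-clusters of the SM22-SmoM2 and control library, on the same horizontal axis; stars mark sub-clusters led by Schwann or immune genes. Most SM22-SmoM2 members (124 of 180) are in sub-cluster 7 and most control members (108 of 151) in sub-cluster 3.

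As to identity, all 10 fibroblast markers were at 10 CPM or more in the members, with Col1a1 the highest at 19290 CPM. The 8 Schwann markers summed to 52.1 CPM in members, with Sox10 at 0, against 423 CPM in the other fibroblasts, or to 38.0 and 52.0 CPM outside the Schwann- and immune-led sub-clusters. Immune markers summed to 90.6 CPM in members and 143 CPM in the others, or to 33.4 and 33.0 CPM outside those sub-clusters. The highest in members was Cd74 at 37.7 CPM, with 90% of its UMIs in 1 cell. Muscle and pericyte markers summed to 32.4 CPM with Myh11 at 0, endothelial markers to 66.4 CPM with Cdh5 highest, and keratinocyte markers to 2.64 CPM with Krt5 and Krt15 at 0. Of the mast cell markers only Kit had UMIs, 2 in all. Of the members that could be sexed by Xist and Y-linked UMIs, 151 were male and 0 female, against 600 and 93 among the others. Outside the Schwann- and immune-led sub-clusters these numbers were 148 and 0 against 512 and 35. In the control library 123 members were male and 9 female, against 751 and 345 among the others. Xist and Y-linked UMIs occurred together in 11 members (6.11%) and 13 others (1.43%). The part of these differences in the results below was not tested, apart from the male cells alone and the cells without both kinds of UMI, given among the alternatives.

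Across the transcriptome, genes with at least 50 UMIs over both groups were compared between the members and the other SM22-SmoM2 fibroblasts. Of 10040 genes, 319 were at least 2-fold higher in members, which is 3.18%, and 1190 at least 2-fold lower, which is 11.9%. The median log2 ratio of all genes was -0.29, so that a ratio of 0 lies above the typical gene. Without the Schwann- and immune-led sub-clusters, 3.92% of 9593 genes were at least 2-fold higher and 9.41% lower. These percentages are the background for the counts below.

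The 15 highest genes outside the 7 have varied roles. Without the Schwann- and immune-led sub-clusters, Il6, Gm15726, Has1, Nfkb1, Rgcc and Rgs2 left this ranking, with ratios still past 2-fold. Genes such as Cxcl2, Tgfb2 and Ndrg1 then entered it. Bdkrb1, the inducible bradykinin B1 receptor, was at 66.4 CPM in members and 5.4 CPM in the others, a log2 ratio of 3.62 (3.16 to 4.11). The transporter gene Slco4a1 had a ratio of 3.17, with 21.7% of the members' UMIs in 1 cell. Errfi1, a feedback inhibitor of the EGF receptor, was far more abundant, at 920 and 144 CPM (2.68). Dusp5, a phosphatase that inactivates ERK, was at 221 and 44.1 CPM (2.33). Cytokine genes in this group were Il11 (111 and 17.5 CPM, 2.67) and Il6 (161 and 27.7 CPM, 2.55), which act through the shared receptor gp130, and the NF-kB subunit gene Nfkb1 was at 294 and 64.8 CPM (2.18). Has1, a hyaluronan synthase, had a ratio of 2.39, Trib1 2.37, the metallothionein gene Mt2 2.31, and the signalling regulators Rgcc and Rgs2 2.16 each. The remaining genes of the 15 were Fam13c (2.71), the non-coding RNA Gm12840 (2.76) and Gm15726 (2.42), which is annotated antisense to Mid1 and cannot be told from it here unless strand was counted. Several of these levels went with sub-cluster 7 as well as with the rule. In the 56 members outside it, Il11 was at 20.0 CPM and Gm12840 at 12.2 CPM, close to the other fibroblasts, whereas the 55 cells of sub-cluster 7 that missed the rule had 121 and 54.6 CPM. Errfi1 did not show this split, at 708 CPM in those members and 672 CPM in those cells. The sub-clusters were formed on these genes, so that this is a description. A RefSeq promoter was found for 10 of these 15 genes. Errfi1 and Has1 held a CRE, Il11, Il6 and Mt2 an AP-1 site, and Dusp5 and Mt2 an ARE, with the same backgrounds as above.

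Of the 10 lowest genes, most were those of Schwann cells. Sostdc1 had 0 UMIs in members and 115 CPM in the others, a log2 ratio of at most -6.66 at 3 UMIs over the group. Dhh, the Hh ligand of Schwann cells, had 1 and 125 UMIs (-5.19, -10.50 to -2.69), and the Schwann receptor gene Erbb3 2 and 133 UMIs (-4.28). Zfp536, Aatk and Iqgap2 were at -4.92, -4.76 and -4.45. Without the Schwann- and immune-led sub-clusters these ratios were -1.24 for Dhh, -2.24 for Erbb3 and at most -1.75 for Sostdc1. For Zfp536, Aatk and Iqgap2 they were -2.13, -2.01 and -3.33. Dhh, Erbb3, Aatk and Iqgap2 were then at 0.905, 1.81, 1.55 and 3.88 CPM in the others, under the minimum of 50 UMIs. No order is read from these ratios. Dqx1 (-4.60), Gm26870 (-4.49) and the mitotic kinesin gene Kif2c (-4.45) were at -4.80, -4.69 and -4.24 without those sub-clusters. Dqx1, Kif2c and Aatk rest on 1 UMI each in members, Dqx1 was found in 0.44% of the others, and after thinning their ratios were 0.094, -0.47 and -0.60, so that none is a firm value. Gm26870 overlaps several near-identical gene models, and 64.3% of the members' UMIs were in 1 cell, so that its value is uncertain.

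The gene lists give the biology by pathway. EGF receptor ligands and ERK feedback genes had a median log2 ratio of 0.70 over 14 genes, with 6 at least 2-fold higher and 2 lower, against 3.18% and 11.9% of all genes. Besides Errfi1, Dusp5 and Erbb3, the list's most extreme gene was Spry4, an inhibitor of receptor tyrosine kinase signalling, at 15.1 and 2.86 CPM (2.40, 1.65 to 3.17). Without the Schwann- and immune-led sub-clusters the median was 1.71, with 8 genes higher and 0 lower. The control median was -0.01 (2 genes higher, 2 lower), and 0.43 without those sub-clusters (6 higher). Spry4 was at 4.53 CPM in control members and 4.5 CPM in the other control fibroblasts, and Dusp5 at 24.9 and 17.9 CPM, but without those sub-clusters the control ratios were 1.19 for Spry4 and 1.27 for Dusp5. Errfi1, in contrast, had the same ratio in both libraries (2.67 in the control).

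Of the cytokine and NF-kB list, 10 of 17 genes were at least 2-fold higher and 0 lower, with a median of 1.06. The neutrophil chemokine genes Cxcl1 and Cxcl2 were at 3232 and 998 CPM in members and 764 and 228 CPM in the others. The list's median was higher in control fibroblasts, 1.69, with 13 genes higher and 2 lower. Cxcl1 was at 4209 and 682 CPM there and Cxcl2 at 1838 and 244 CPM. Il11 was at 182 and 12.6 CPM in the control library (3.85), so that inflammatory genes were high in the marker-rich cells of both libraries. Of the small list of IL-33 and IL-1 receptors beside Il1rl1 itself, no gene was 2-fold higher. Il1rap, the partner chain of ST2, was at 10.6 and 24.5 CPM (-1.21), but at 0.28 without the Schwann- and immune-led sub-clusters, and Il1r1, Il1rl2 and Myd88 were at 0.82, 0.78 and -0.22.

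Immediate early genes had a median of 0.79, with 7 of 18 at least 2-fold higher and 0 lower. The AP-1 subunit genes Fosl1 (141 and 45.3 CPM, 1.64) and Fosl2 (227 and 88.1 CPM, 1.36) were among them, as were Nr4a1 (1.51) and Myc (1.39). The control median was 0.94 with 9 of 18 higher, but Fosl2 was at 74.4 and 67.9 CPM (0.13).

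A possible name for cells with these markers, stress-type, was checked against lists of stress genes. The 3 lists had medians near 0 by the main ratios, which is above the median of -0.29 of all genes. Genes at least 2-fold higher numbered 1 of 17, 1 of 10 and 2 of 13, against 3.18% of all genes. Of 17 measured NRF2 target genes other than Hmox1 and Srxn1, 1 was at least 2-fold higher and 0 lower, with a median of -0.10. This gene was Gclc, a subunit of the enzyme that starts glutathione synthesis, at 25.7 and 8.7 CPM (1.56, 1.07 to 2.05). Sqstm1 (0.77), Txnrd1 (0.65) and Gstm1 (-0.43) followed in size. The heat shock list had a median of -0.03 with 1 of 10 higher: Dnajb1 was at 298 and 148 CPM (1.01, and past 2-fold in 13 of the 17 settings tried), whereas Hspa1a was at 242 and 460 CPM (-0.93, or -1.01 without the Schwann- and immune-led sub-clusters), with Dnaja1 at -0.51 and Hspa1b at -0.31. Of 13 genes of the integrated stress response, 2 were higher, Sesn2 (1.71) and Chac1 (1.09, 0.27 to 1.88), with Ddit4 at 0.66, Psat1 at -0.61 and a median of 0.10. Without the Schwann- and immune-led sub-clusters this median was 0.43, with 1 gene higher, against -0.26 for all genes. It was 0.30 when also matched for depth. These lists do not settle the name, and the lists of metallothioneins, immediate early, p53 target and hypoxia genes are given apart. The cells are therefore named here by their rule.

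The metallothioneins, small metal-binding proteins, were an exception with 2 of 3 genes of the list higher. Mt1 was at 612 and 184 CPM in the SM22-SmoM2 library (1.73) and Mt2 at 480 and 96.8 CPM (2.31), while the zinc transporter gene Slc30a1 was at 0.27. In the control library Mt1 was at 167 and 307 CPM (-0.88) and Mt2 at 158 and 108 CPM (0.56). Without the Schwann- and immune-led sub-clusters the control ratio was -0.45 for Mt1 and 1.30 for Mt2, against 2.14 and 2.77 in the SM22-SmoM2 library, so that Mt2 was then past 2-fold in both libraries.

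The p53 target list had a median of 0.54 with 4 of 10 genes higher. They were the cell cycle inhibitor Cdkn1a (708 and 227 CPM, 1.64), Mdm2 (1.48), Plk3 (1.25) and Btg2 (1.14), of which Btg2 was just under 2-fold (0.996) without the Schwann- and immune-led sub-clusters. Of 11 hypoxia and glycolysis genes 3 were higher, the angiogenic factor Vegfa (99.2 and 23.7 CPM, 2.07), the hexokinase gene Hk2 (2.04) and Ndrg1 (2.01), and Pfkfb3 was at 0.92. Vegfa had the same ratio in the control library (2.06). Genes of quiescence and senescence gave none past 2-fold, with Gas6 at 0.68, Cdkn1b at -0.56, Cdkn2a at 0.28 and Cdkn1c at -0.28.

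The cell cycle list was the only list with a median under -1. Of its 12 genes 10 were at least 2-fold lower in members and 0 higher, with a median of -1.44, against 11.9% of all genes lower. The cyclin genes Ccnb1 (7.55 and 47.6 CPM, -2.66), Ccna2 (6.41 and 35.3 CPM, -2.46) and Ccnb2 (15.5 and 63.7 CPM, -2.04) and the kinase gene Cdk1 (15.8 and 61.1 CPM, -1.95) led it. The median was -1.39 without the Schwann- and immune-led sub-clusters. The control median was 0.71, with 4 genes higher and 0 lower, and Ccnb1 was at 72.5 and 30.4 CPM there. Matched for depth, the control median was -0.18 with no gene past 2-fold and Ccnb1 at 0.042, whereas the SM22-SmoM2 median was -1.64 with 11 genes lower. The rise in the control members was thus lost with depth matching and the fall in the SM22-SmoM2 members was not. Sub-cluster 10, led by cell cycle genes such as Ube2c and Birc5, held 2 of the 180 SM22-SmoM2 members and 11 of the 151 control members, of 58 and 53 fibroblasts in it. Sub-cluster 12, a Schwann-led sub-cluster with Ube2c and Pbk among its leading genes, held 2 and 0 members.

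**Figure D4:**
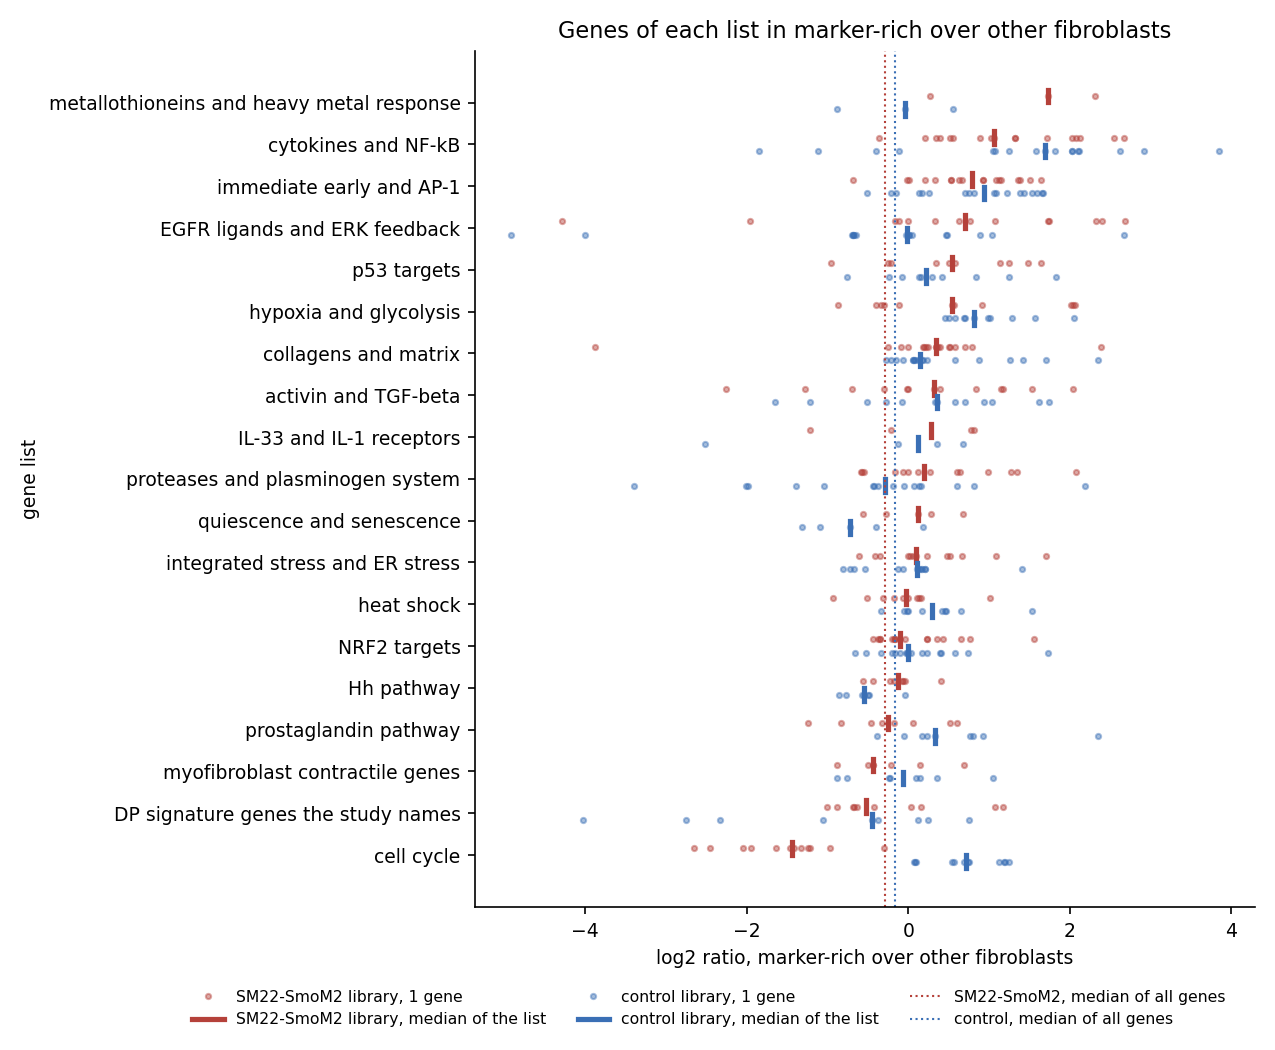
Log2 ratio of marker-rich over other fibroblasts (horizontal axis) for each gene of 19 lists (points) and the median of each list (bars) in the SM22-SmoM2 (red) and control (blue) library; dotted lines are the medians of all genes, -0.29 and -0.16. The medians of metallothioneins (1.73 and -0.04) and the cell cycle (-1.44 and 0.71, or -1.64 and -0.18 matched for depth) stand apart between the libraries, and cytokines are high in both (1.06 and 1.69).

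Activin and TGF-β genes went in both directions, with 4 of 13 higher, 2 lower and a median of 0.31. Tgfb2 was at 135 and 32.9 CPM (2.04). Ctgf, a matricellular target of TGF-β and YAP, was at 9.06 and 43.4 CPM (-2.26, -2.92 to -1.67), and the activin antagonist gene Fstl3 at -1.28. When the Schwann- and immune-led sub-clusters were left out, 5 genes were higher and 1 lower, with Fstl3 at -0.95. Of 14 genes of proteases and the plasminogen system 3 were higher. Mmp13, an interstitial collagenase, was at 148 and 35.1 CPM (2.08), and the urokinase receptor gene Plaur at 221 and 91.2 CPM (1.28). Mmp9 was at 1.35 from 29 UMIs, but at -0.74 after thinning, so that its direction is not settled. Timp1 was at 0.98.

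Among 18 collagen and matrix genes the median was 0.34, with 1 higher and 1 lower. Has1 was higher, and Eln, which encodes elastin, was lower, at 4.15 and 61.1 CPM (-3.88, -4.89 to -3.03). Control members had 577 CPM of Eln and the other control fibroblasts 177 CPM (1.70). Tnc and Has2 were at 0.79 and 0.70, but at 1.06 and 1.30 without the Schwann- and immune-led sub-clusters, where 3 genes of the list were higher. The contractile genes of myofibroblasts had a median of -0.43 with none past 2-fold: Myl9 was at -0.88 (-1.06 without those sub-clusters), Actn1 at 0.69, Acta2 at -0.50 (142 and 201 CPM) and Tagln, the gene of SM22α, at -0.43 (151 and 203 CPM). Of the prostaglandin list, without Ptgs2 itself, no gene was higher and 1 of 8 was lower: Hpgd, the enzyme that degrades prostaglandins, was at 18.1 and 42.9 CPM (-1.24), with Ptges2 at -0.83, Ptger4 at 0.60 and Ptges at 0.52.

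The summed level of Hh pathway genes was not higher in the marker-rich cells. Gli1, Gli2 and Ptch1 together were at 133 CPM (119 to 147) in members and 170 CPM (161 to 178) in the other SM22-SmoM2 fibroblasts, or 196 CPM outside the Schwann- and immune-led sub-clusters. They were at 13.2 and 22.4 CPM in the control library, so that the members of the SM22-SmoM2 library lay well above every control group. After thinning, 44.7% of members and 43.5% of the others had a UMI of these genes, against 6.08% and 8.66% in the control library. Of the other SM22-SmoM2 fibroblasts outside the Schwann- and immune-led sub-clusters, 49.8% (45.8 to 53.8) had one. The list of 8 Hh genes had none past 2-fold and a median of -0.13. Ptch1, which is both receptor and target, was at -0.56, the antagonist Hhip at -0.44, Gli1 at 0.41 and Gli2 at -0.22. Gli1 thus went the other way from the sum, at 31.3 and 23.6 CPM (0.026 to 0.78 for its ratio). Its ratio was 0.17 without the Schwann- and immune-led sub-clusters.

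Of 10 measured genes of the dermal papilla (DP) signature, the mesenchymal condensate that instructs hair follicles, 2 were higher and 0 lower past 2-fold by the main ratios, with a median of -0.53. Hey1, a Notch target, was at 102 and 45.5 CPM (1.17) and Ggta1 at 34.7 and 16.5 CPM (1.07), while Snrpn was at -1.0 and Sema6a at -0.88. Leaving out the Schwann- and immune-led sub-clusters put Ggta1 at 0.95 and Sema6a at -1.02. This median ran from -0.67 to 0.17 over the alternatives, so that it has no settled sign. Hey1 in control fibroblasts was at 12.5 and 25.8 CPM (-1.05), but at -0.38 when matched for depth and 0.11 without the Schwann- and immune-led sub-clusters.

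The comparison of members with other fibroblasts was made within each library, and the libraries share no cells. In the control library 3.1% of 10876 genes were at least 2-fold higher in marker-rich cells and 10.2% lower. Of genes measured in both, without the 7, 296 were at least 2-fold higher in the SM22-SmoM2 library and 263 in the control library, and 93 were in both, which is 31.4% and 35.4% of the lists. Without the Schwann- and immune-led sub-clusters 143 genes were in both, 42.2% of 339 and 47.0% of 304. Of genes at least 2-fold lower, 315 were in both, 27.2% of 1158 and 38.3% of 823. Without those sub-clusters this fell to 109, 12.7% of 858 and 22.5% of 484. For the 15 highest genes of the SM22-SmoM2 library the control ratios ran from 0.37 for Rgs2 to 3.85 for Il11. Bdkrb1 (3.24), Il11, Errfi1, Has1 (2.35), Nfkb1 (2.05) and Il6 (2.03) were at least 4-fold higher in both libraries, although matched for depth the control ratios of Has1 and Il6 were 1.60 and 1.95. Fam13c (0.55), Mt2, Dusp5 (0.48) and Rgs2 were under 2-fold in the control. Fam13c (0.18) and Rgs2 (0.22) still were without the Schwann- and immune-led sub-clusters, and Mt2 (1.30) and Dusp5 (1.27) were not.

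**Figure D5:**
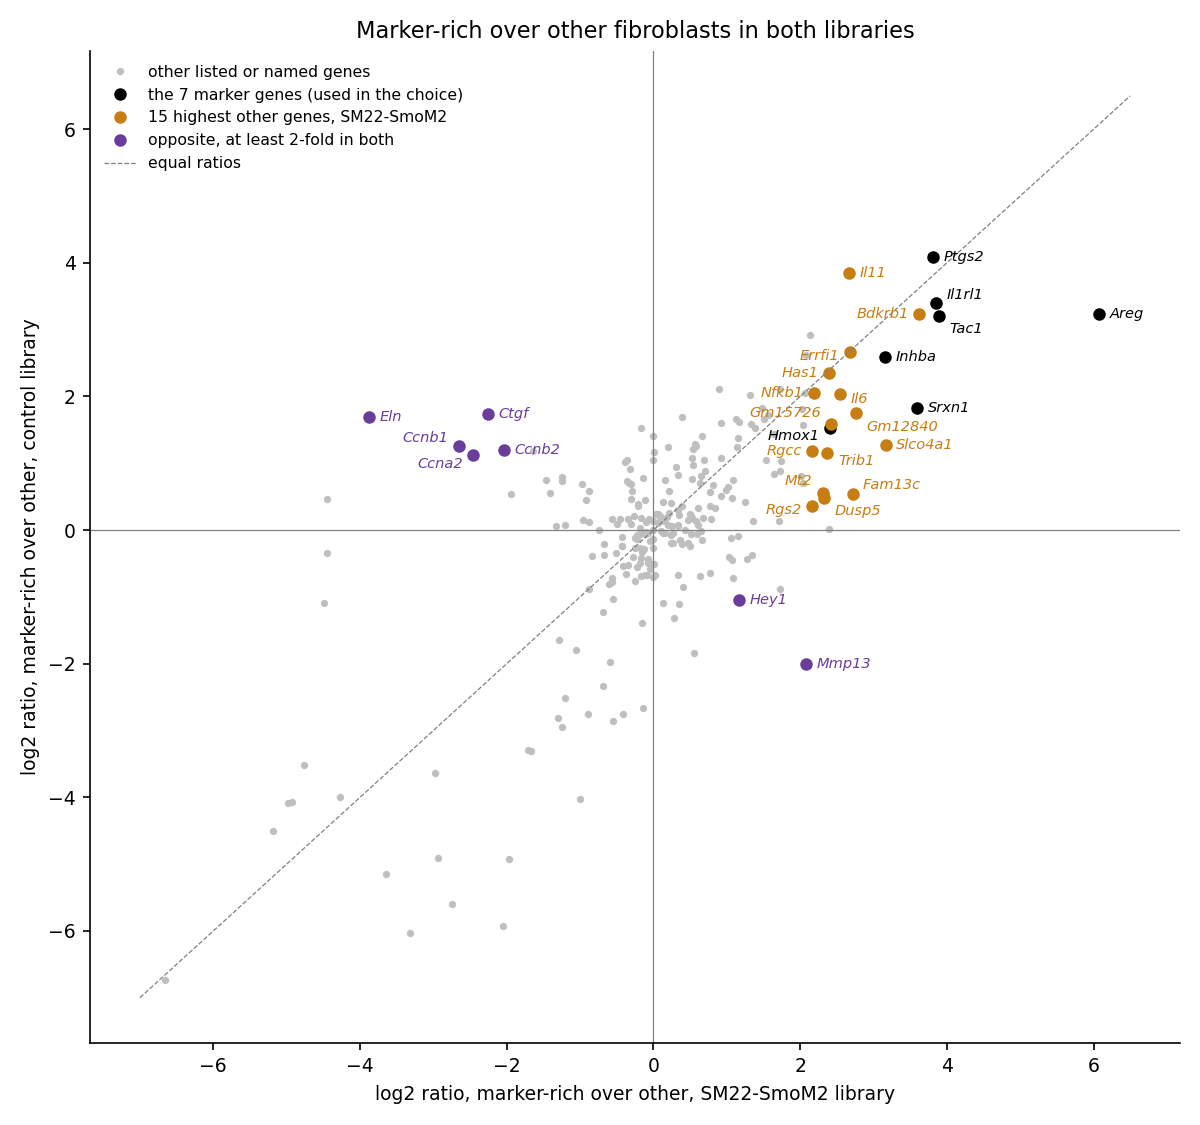
Log2 ratio of marker-rich over other fibroblasts in the SM22-SmoM2 (horizontal axis) and control (vertical axis) library for listed and named genes with at least 50 UMIs in each comparison; genes with 0 UMIs in a group are drawn at 3 UMIs. Bdkrb1, Il11 and Errfi1 are high in both libraries, and Eln, Ctgf, Mmp13, Hey1 and 3 cyclin genes are past 2-fold in opposite directions; matched for depth, Hey1 (-0.38) and the cyclins (-0.034 to 0.076) are not in the control.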

How the data were processed

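The authors sequenced Tomato+ dermal cells on the 10x Chromium v2 platform and made the deposited matrices with Cell Ranger from bcl2fastq reads aligned to mm10. The deposited values are counts, whole UMI counts per gene and cell that the authors did not normalize. The versions, the annotation and whether strand was used are not given in the sources used here. The barcode list of the whole kit was not used, because it does not name the matrix columns.

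From these values, UMIs were summed over the cells of a group and scaled to 1000000 (CPM). Log2 ratios compare summed CPM, with 3 UMIs over the group standing in for 0, and a gene needed 50 UMIs over both groups. Intervals are exact (Poisson, Clopper-Pearson and conditional binomial, 95%). Called at least 2-fold means a log2 ratio of 1 or more in size. Thinned cells were drawn to 5000 UMIs without replacement, and depth matching weighted the other cells over 5 bins of the members' UMIs. Sub-clusters came from k-means (K = 15, 10 starts) on 20 principal components of 2000 variable genes without the 7 markers. Those with over 1000 CPM of Schwann or immune markers were also left out as an alternative, chosen after seeing the data. Scrublet at an expected rate of 5% marked 17 cells, none of them a member. The ratios were tested on simulated data. NumPy 2.4.6, SciPy 1.17.1, scikit-learn 1.9.0 and Scanpy 1.11.5 were used.

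The members and the 19 gene lists were chosen with earlier results of these data known. Named are the 7 markers, the 15 genes with the highest and the 10 with the lowest log2 ratio and the same direction when matched for depth (the highest with a UMI in at least 20% of members, without gate, mitochondrial, ribosomal protein and sex-linked genes), up to 4 genes per list with the largest ratios, and in each lineage the most abundant marker and those at 0. Leading genes of sub-clusters are named to identify them. Some genes that these rules name are not reported here. UMIs of a 3' kit count transcripts and are not scaled by length. Of 27998 gene IDs, 27722 were found in GENCODE M21 (GRCm38), the source of gene positions.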

Additional observations from a re-analysis of the deposited data

Results flagged for a closer look

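Of the named and listed genes, 7 were at least 2-fold higher in marker-rich cells of a library and at least 2-fold lower in those of the other. The differences between the libraries were not tested, since each genotype is 1 library. In the SM22-SmoM2 library the log2 ratio was -3.88 for Eln, -2.26 for Ctgf, -2.66 for Ccnb1, -2.46 for Ccna2 and -2.04 for Ccnb2, and in the control library 1.70, 1.74, 1.25, 1.12 and 1.19. It was 2.08 for Mmp13 and 1.17 for Hey1 in the SM22-SmoM2 library, and -2.0 and -1.05 in the control library. Matched for depth, the control ratios were 1.70 for Eln, 1.39 for Ctgf and -1.52 for Mmp13, but 0.042, -0.034 and 0.076 for Ccnb1, Ccna2 and Ccnb2 and -0.38 for Hey1. Hey1 was at 0.11 without the Schwann- and immune-led sub-clusters, where Eln, Ctgf, Mmp13 and the cyclins stayed past 2-fold in the control (1.32, 1.47, -2.38, and 1.12 to 1.16). The opposite directions were thus lost for 4 of the 7 genes when matched for depth. Control members and SM22-SmoM2 members lay mostly in different sub-clusters (71.5% in sub-cluster 3 and 68.9% in sub-cluster 7), and the part of this in these differences was not tested. Over all 9909 genes measured in both libraries, the ratios not matched for depth were also counted. By these, 12 genes were at least 2-fold higher in SM22-SmoM2 members and at least 2-fold lower in control members. Another 34 went the other way round. For scale, 296 of all genes were at least 2-fold higher and 1158 lower in SM22-SmoM2 members, and 263 and 823 in control members. No result about the members is read from the counts of 12 and 34.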

How the results depend on the processing

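In place of 180 cells, 276 were chosen with at least 3 markers (25.3%, control 16.9%), 115 with at least 5 (10.6%, control 4.31%) and 108 after thinning (11.8%, control 3.81%). Shares were 20.1% and 14.1% in male cells alone, and 19.8% and 14.1% without the Schwann- and immune-led sub-clusters. Genes at least 2-fold lower numbered 770 with at least 3 markers, and 2113 without a minimum of UMIs, when 986 were higher. Without cells that held both Xist and Y-linked UMIs, 317 genes were at least 2-fold higher and 1220 lower. In male cells alone 309 were higher and 962 lower. Among genes at least 2-fold apart, reversed signs were found for Dqx1 (0.094) and Mmp9 (-0.74) after thinning, and for Il1rap without those sub-clusters (0.28, or 0.024 when also matched for depth). The sign of smaller ratios was not settled for Psat1 (-0.68 to 0.40), Ptger4 (-0.42 to 0.72), Slc30a1 (-0.088 to 0.58), Hspa1b (-1.94 to 0.11) and Cdkn2a (-0.017 to 0.48). Of the ratios of single genes under the alternatives, 1341 stayed within the interval of the main value, 255 left it, and 4 of genes at least 2-fold apart reversed. The share was higher in the SM22-SmoM2 than in the control library in each alternative printed here. No paired analysis was possible because each genotype is 1 library. Depth limits the shares of cells with a UMI and the ratios of genes with few UMIs, such as Mmp9 and Dqx1, and intervals do not cover differences between mice.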
